A study of Drosophila melanogaster with 30 samples.

Results

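The core circadian clock of the fly brain was followed through 9 genes: per, tim, Clk, cyc, vri, Pdp1, cwo, cry and slmb. Their members were all probe sets that the platform annotation gives to 1 of these genes alone, with symbols updated by Entrez gene number, which found 12 probe sets among 13966 tested and 9 genes among 10844 named. Of these, 3 probe sets measure tim and 2 measure cwo; the brightest of each stands for the gene below. Whole brains of Canton-S flies, a wild-type strain, were profiled on Affymetrix Drosophila Genome 1.0 arrays; all flies were virgin females of 5 days, and each array held RNA of a pool of 139 to 193 brains.

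Time is given as zeitgeber time (ZT), the hours since lights-on in a light-dark cycle with equal light and dark phases. In the sleep deprivation experiment, flies were kept awake by hand from ZT14 for 2, 4 or 6 h (deprived flies, at ZT16, ZT18 and ZT20), undisturbed flies were taken at the same hours (sleeping flies), and a group taken at ZT14 gave the start. In the active period experiment, flies were stimulated by hand for 4 h up to ZT14, when flies are normally awake (stimulated flies), and were set beside undisturbed awake flies at ZT14 (wake flies) and flies taken at ZT10. Each of the 10 groups has 3 arrays, 30 in all, and no genotype, transgene or drug differs between them. A whole-brain pool mixes the few clock neurons with glia and other cells that also run a clock, so a lower level can come from fewer cells of a type or from less RNA per cell, and these cannot be told apart.

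The clock of Drosophila is a transcriptional feedback loop. CLK and CYC form a pair that binds E-box DNA and switches on per, tim, vri, Pdp1 and cwo; PER and TIM proteins accumulate during the night, enter the nucleus and block that pair. A second loop sets Clk itself, with VRI as its repressor and PDP1 as its activator, so in fly heads Clk and cry RNA are known to run opposite to per, tim and vri RNA. CWO is a further repressor at E-boxes, CRY is the blue-light receptor that sends TIM to be degraded, and SLMB is the F-box protein that marks phosphorylated PER for destruction.

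All values are the authors' deposited log2 expression levels; levels of different probe sets are not on a common scale, and a difference of 1 is a doubling. The median level of an array was 4.88 to 4.96, and correlations across probe sets between arrays of the same group ran from 0.974 to 0.997. Markers of neurons were bright, with elav at percentile 71.5 and nSyb at percentile 94.1 of all probe sets, and so was the glial marker repo at percentile 76.9. The photoreceptor arrestins Arr1 and Arr2 stood at percentiles 95.2 and 97.8 and the fat body yolk protein gene Yp1 at percentile 99.9. Other photoreceptor markers lay lower, such as trp at 53.0, inaD at 36.9 and inaC at 13.1. Of the 8 measured fat body markers only Fbp2 lay low, at 22.8. Yp2, Yp3 and apolpp stood at percentile 98.4 or above, and fon, Fbp1 and Lsp2 at 91.8, 77.2 and 64.5. Some genes typical of eye cells were thus bright and others were not, while most fat body markers were bright. One array, sleeping 6 h replicate 1, has a source name that says deprived while its title and description say sleeping; it was kept as sleeping, and values without it are given where a result rests on it.

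Among the clock probe sets, Pdp1 lay highest in the distribution of all probe sets, at percentile 92.7 with a mean of 7.54 over the 30 arrays. The main tim probe set averaged 6.83 (percentile 86.3), cry 6.54 (percentile 82.4), cyc 6.51 (percentile 81.8) and vri 6.48 (percentile 81.3). Further down came per at 5.63 (percentile 65.2), cwo at 5.44 (percentile 61.2) and slmb at 4.60 (percentile 43.0). Clk was dim, at 2.80 and percentile 9.67, and one of the other tim probe sets was dimmer still at 2.14 (percentile 0.208); differences at such levels are compressed by background.

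The clearest movement of the clock in these brains was the loss of vri RNA, which encodes the repressor of Clk, in the middle of the night. In deprived flies vri stood at 6.53, 6.94 and 6.61 at ZT16, at 6.49, 6.46 and 6.54 at ZT18 and at 5.89, 5.73 and 5.79 at ZT20, after 6.67, 6.92 and 6.72 at ZT14. Sleeping flies had 6.95, 6.69 and 7.04 at ZT16, 6.43, 6.37 and 6.64 at ZT18 and 5.87, 5.94 and 5.69 at ZT20. In both courses every ZT20 array lay below every array of the earlier hours, and most of the loss came between ZT18 and ZT20.

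Against the shared ZT14 arrays, vri at ZT20 fell by 0.97 in deprived flies, which is 1.96-fold lower (95% interval −1.20 to −0.74; limma, adjusted p = 0.000128). In sleeping flies it fell by 0.94, or 1.91-fold (−1.17 to −0.70; limma, adjusted p = 0.000136; −0.95 without the array of conflicting labels, adjusted p = 0.00115). Tested over all 4 hours, vri was the 1 of 9 clock genes called in deprived flies, where 0.158% of all probe sets were called, and the 1 of 9 in sleeping flies, where 0.0859% were called. The linear trend was −0.16 log2 units per h in each course, and the trends differed by 0.01 (interval −0.03 to 0.04), so the interval holds differences of up to 0.04 per h.

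Within chip lots, with 1 or 2 arrays of each group, the vri differences were of like size. Deprived ZT20 minus ZT14 was −1.03 in lot 2 and −0.94 in lot 3, and sleeping ZT20 minus ZT14 was −1.05 in lot 2 and −0.88 in lot 3. Neuronal markers averaged 6.98 to 7.35 in deprived and 7.31 to 7.72 in sleeping flies at ZT20, against 7.28 to 7.69 at ZT14. Glial markers averaged 6.97 to 7.25 in deprived and 7.31 to 7.54 in sleeping flies at ZT20, against 7.22 to 7.42 at ZT14. The part of these markers in the vri decrease was not tested. Arrays hybridised together form a run: within run 3, deprived ZT20 minus ZT14 was −0.99, while in sleeping flies no run held both hours. With the run as a block the sleeping decrease was −0.996 but no longer called (adjusted p = 0.569), the deprived one stayed called at −0.99 (adjusted p = 0.0144), and within run 2 sleeping ZT20 minus ZT18 was −0.67.

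**Figure D1:**
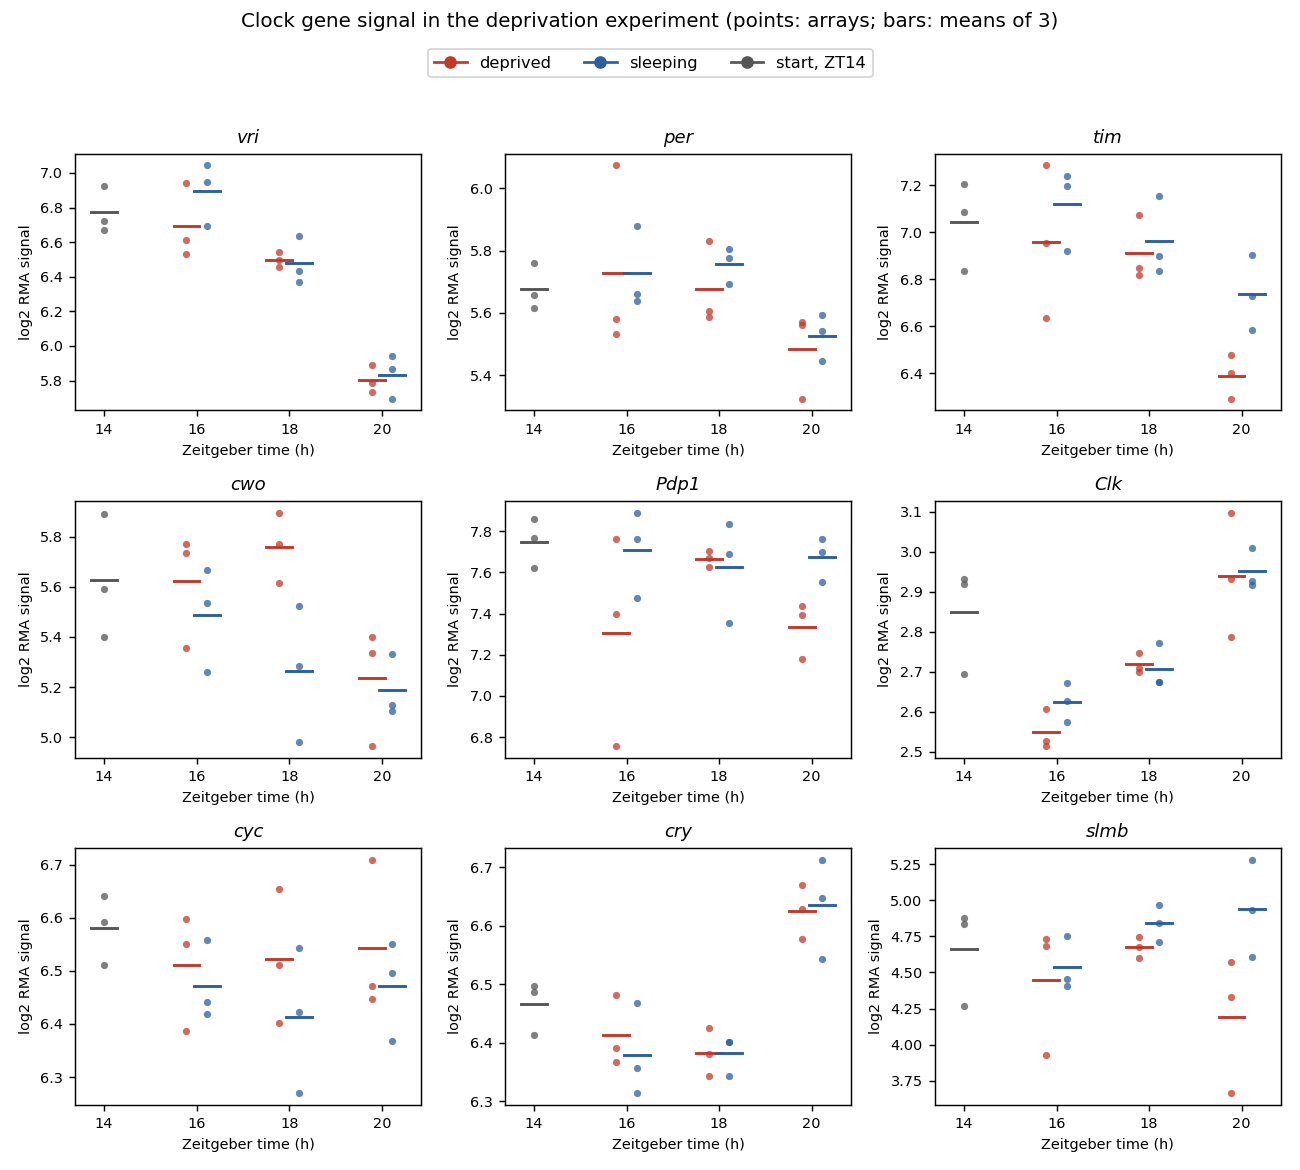
Log2 expression of the 9 clock genes on each array of the sleep deprivation experiment, by zeitgeber time in hours. Points are arrays, bars are group means, and deprived and sleeping flies share the ZT14 arrays. The vri panel shows the drop at ZT20 in both courses, with group means of 5.80 in deprived and 5.83 in sleeping flies, while tim at ZT20 averaged 6.39 in deprived and 6.74 in sleeping flies.

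The partner repressors tim and per were followed next. For tim, whose protein stabilises PER and is the target of light, deprived flies had 6.63, 7.28 and 6.95 at ZT16, 6.82, 7.07 and 6.85 at ZT18 and 6.40, 6.48 and 6.29 at ZT20, after 7.09, 7.20 and 6.84 at ZT14. Sleeping flies had 7.20, 6.92 and 7.24 at ZT16, 6.84, 6.90 and 7.15 at ZT18 and 6.90, 6.58 and 6.73 at ZT20. All deprived ZT20 arrays lay below all ZT14 arrays; sleeping ZT20 arrays overlapped with ZT14.

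Deprived flies at ZT20 had tim lower by 0.65 than flies at ZT14, 1.57-fold (interval −0.95 to −0.36; limma, adjusted p = 0.0358), and tim and vri were the 2 of 9 clock genes called, where 0.881% of all probe sets were called. The tim call was lost without run 4, which holds only deprived arrays (−0.60, adjusted p = 0.232), with the run as a block (−0.71, adjusted p = 0.106), after renewed quantile normalisation (−0.55, adjusted p = 0.052) and in 7 of 21 omissions of a single array (−0.76 to −0.57 over all 21, adjusted p up to 0.189). Those 7 were any of the 3 deprived arrays of ZT20, ZT14 replicates 1 and 2, sleeping 2 h replicate 1 and deprived 4 h replicate 3. In sleeping flies the tim difference was −0.30 (interval −0.60 to −0.01; adjusted p = 0.9998), and vri was the 1 of 9 called, where 0.1% were called. The second tim probe set did not follow: its ZT20 minus ZT14 value was −0.14 in deprived and 0.20 in sleeping flies, so the decrease rests on 1 probe set. The third, dim tim probe set differed by 0.19 in deprived and 0.06 in sleeping flies. The glial marker gene wrapper had 7.03, 6.86 and 7.02 in deprived flies at ZT20, against 7.37, 7.50 and 7.49 at ZT14, a difference of −0.48 (limma, adjusted p = 0.0455; lost in 13 of 21 omissions of a single array, without run 4 and with the run as a block). The mean of 8 glial markers overlapped, at 6.97 to 7.25 in deprived flies at ZT20 and 7.22 to 7.42 at ZT14, and 2 of 8 differences were above 0. The part of neuronal and glial markers in the deprived tim difference was not tested. Within run 3 the tim difference was −0.71, and −0.81 in lot 2 and −0.58 in lot 3.

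For per, the founding clock gene whose protein blocks CLK and CYC, the night course was shallow. Deprived flies averaged 5.73 ± 0.30 at ZT16, 5.68 ± 0.14 at ZT18 and 5.49 ± 0.14 at ZT20, sleeping flies 5.73 ± 0.13, 5.76 ± 0.06 and 5.53 ± 0.08, and the ZT14 group 5.68 ± 0.07 (SD, n = 3 each). Every ZT20 array of both courses lay below every ZT14 array, yet the differences of −0.19 in deprived and −0.15 in sleeping flies were not called.

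Clk and cry, the arm that runs opposite in fly heads, had their lowest group means at ZT16 or ZT18 in both courses. Clk had 2.61, 2.51 and 2.53 in deprived flies at ZT16 and 3.10, 2.93 and 2.79 at ZT20, and 2.67, 2.57 and 2.63 in sleeping flies at ZT16 and 2.92, 2.93 and 3.01 at ZT20, with 2.70, 2.92 and 2.93 at ZT14. All ZT16 arrays of both courses lay below all ZT14 arrays, where 14.3% of all probe sets did not overlap in deprived and 5.75% in sleeping flies. The differences were −0.30 in deprived flies (limma, adjusted p = 0.203) and −0.22 in sleeping flies (adjusted p = 0.9998), neither called.

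For cry, deprived flies had 6.67, 6.58 and 6.63 at ZT20 and sleeping flies 6.71, 6.65 and 6.54, against 6.41, 6.50 and 6.49 at ZT14. Each ZT20 array stood above each ZT14 array, by 0.16 on average in deprived and 0.17 in sleeping flies, and neither difference was called (limma, adjusted p = 0.168 in deprived and 0.956 in sleeping flies). Within run 3 the deprived difference was 0.17, and within run 2 cry was 0.26 higher in sleeping flies at ZT20 than at ZT18.

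Groups did not overlap between ZT20 and ZT14 for per, tim, vri, Pdp1 (all lower) and cry (higher) in deprived flies, 5 of 9 genes, where 26.9% of all probe sets did not overlap. In sleeping flies this held for per, vri, cwo (lower) and cry (higher), 4 of 9 genes, where 10.6% did not overlap. Both sets are measured against the same 3 ZT14 arrays, so they share whatever is particular to those arrays. Of these, replicate 3 was the only array of run 5 and was scanned on another day than the other arrays of this experiment.

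**Figure D2:**
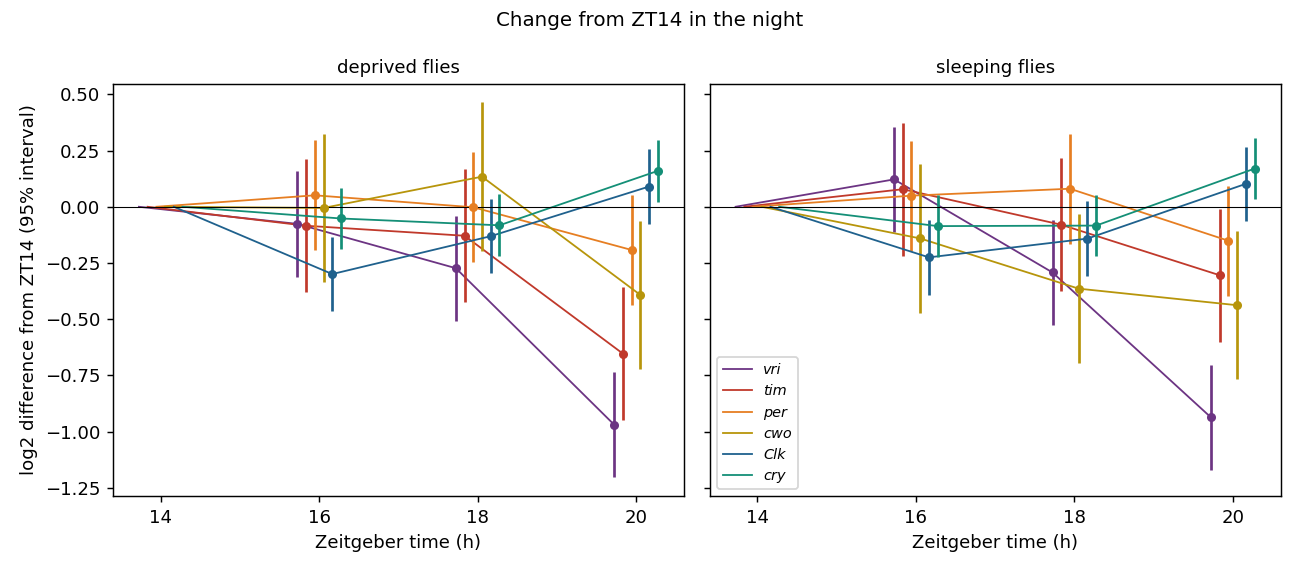
Difference in log2 expression from ZT14 for vri, tim, per, cwo, Clk and cry at ZT16, ZT18 and ZT20, in deprived and in sleeping flies, with 95% intervals from limma. Pdp1, cyc and slmb are not drawn. Only vri in both courses and tim in deprived flies passed the threshold at ZT20, at −0.97, −0.94 and −0.65.

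The remaining activator and repressor genes had no called difference between ZT20 and ZT14. RNA of cyc, which encodes the partner of CLK, is not known to cycle in fly heads; it lay between 6.27 and 6.71 on all 30 arrays, with ZT20 minus ZT14 at −0.04 in deprived and −0.11 in sleeping flies. Pdp1 averaged 7.34 ± 0.14 in deprived and 7.67 ± 0.11 in sleeping flies at ZT20, against 7.75 ± 0.12 at ZT14 (SD, n = 3 each), differences of −0.41 and −0.08. The main cwo probe set had 5.40, 5.34 and 4.97 in deprived and 5.33, 5.11 and 5.13 in sleeping flies at ZT20, against 5.59, 5.89 and 5.40 at ZT14; the differences of −0.39 and −0.44 were not called, and the second cwo probe set stood 0.31 above ZT14 in deprived and 0.32 above it in sleeping flies at ZT18, where the main one differed by 0.13 and −0.36. At ZT20 the second cwo probe set stood 0.20 above ZT14 in deprived and 0.06 above it in sleeping flies.

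Sleep loss itself was asked about by setting deprived flies beside sleeping flies of the same hour. No hybridisation run held both groups at 2 h or at 6 h, so sleep loss and run cannot be told apart within those pairs. At 4 h, run 2 held arrays of both groups. No clock gene was called at any hour: 0 of 9 at 2 h, where 0.00716% of all probe sets were called, 0 of 9 at 4 h, where 0.0143% were called, and 0 of 9 at 6 h, where 0.0931% were called. For the mean over the 3 hours it was again 0 of 9, where 0.924% were called, with 4 of 9 at an unadjusted p under 0.05, where 14.4% of all probe sets were. Of these 4, slmb differed by −0.34 (interval −0.61 to −0.06), Pdp1 by −0.23 (−0.45 to −0.02) and tim by −0.19 (−0.36 to −0.02). The fourth, cwo, was higher by 0.23 (0.04 to 0.42). At 2 h 1 of 9 had an unadjusted p under 0.05, where 8.33% of all probe sets were, at 4 h 1 of 9, where 4.37% were, and at 6 h 2 of 9, where 18% were. The median difference of the 9 genes was −0.07 at 2 h, 0.01 at 4 h and −0.03 at 6 h, beside 0.02, −0.02 and 0.02 over all probe sets.

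In vri, whose level fell over the night, the differences by deprivation lay close to 0 at 4 and 6 h. For this gene, deprived minus sleeping was −0.20 at 2 h (interval −0.43 to 0.04), 0.02 at 4 h (−0.22 to 0.25) and −0.03 at 6 h (−0.27 to 0.20). Clk differed by −0.07, 0.01 and −0.01, with a 6 h interval of −0.18 to 0.15, and cry by 0.03, 0.00 and −0.01, with a 6 h interval of −0.15 to 0.13. For per the differences were 0.00, −0.08 and −0.04, and for cyc 0.04, 0.11 and 0.07.

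The widest gap appeared at 6 h in slmb, which marks PER for turnover: deprived flies had 4.33, 4.57 and 3.67 and sleeping flies 4.94, 4.61 and 5.28. Every deprived array lay below every sleeping array, though 4.57 and 4.61 almost met. The difference was −0.75, 1.68-fold lower (interval −1.23 to −0.28; limma, adjusted p = 0.145), after −0.09 at 2 h and −0.17 at 4 h. For the change of the effect with time, 0 of 9 genes were called, where 0.00716% were called; the slmb trends differed by −0.12 per h (interval −0.20 to −0.04; adjusted p = 0.346), and 0 of 9 trend differences were called, where 0.0358% were.

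At the same hour tim was also lower in every deprived array, by 0.35 on average (interval −0.65 to −0.05, adjusted p = 0.226 by limma). Its second probe set differed by −0.35 as well, and the third, dim one by 0.12. For Pdp1, the activator of Clk, deprived flies had 7.39, 7.44 and 7.18 and sleeping flies 7.70, 7.55 and 7.76, again with no overlap, a difference of −0.34 (interval −0.71 to 0.03; adjusted p = 0.313). Groups thus did not overlap at 6 h for 3 of 9 genes, all lower, where 28.8% of all probe sets did not, a share near that of the clock genes. Without the sleeping array of conflicting labels the values were −0.76 for slmb, −0.27 for tim and −0.32 for Pdp1.

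Other measures were set beside these for the same 6 h groups. The mean of 9 of 11 listed neuronal markers overlapped, at 6.98 to 7.35 in deprived and 7.31 to 7.72 in sleeping flies. That of 8 of 9 glial markers did not, at 6.97 to 7.25 in deprived and 7.31 to 7.54 in sleeping flies. The part of these markers was not tested. Means of photoreceptor markers (7 of 16) and of fat body markers (8 of 9) also overlapped between the groups. Control GAPDH probe sets differed between the 3′ and 5′ ends of the transcript by 1.94 to 2.21 in deprived and 1.59 to 1.81 in sleeping flies, a measure of how complete the labelled RNA was. With the mean 3′ to 5′ difference of GAPDH and actin as a covariate, the 6 h values were −0.48 for slmb, −0.46 for tim and −0.08 for Pdp1.

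Leaving out 1 array, deprived 6 h replicate 3, moved slmb at 6 h to −0.49 (adjusted p = 0.529). With the run as a block it was −1.51 and called (adjusted p = 0.0345), and no run held both 6 h groups; within lots 2 and 3 it was −0.61 and −0.83.

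At 4 h the largest of the 9 differences was that of cwo, with 5.62, 5.90 and 5.77 in deprived and 5.28, 4.98 and 5.52 in sleeping flies. It was the 1 of 9 genes that did not overlap at that hour, where 9.96% of all probe sets did not. The main probe set was 1.41-fold higher, 0.50 on the log2 scale (interval 0.17 to 0.83; limma, adjusted p = 0.750), while the second one differed by −0.00. Within lots 2 and 3 the main value was 0.23 and 0.79, and within run 2 it was 0.36. The second tim probe set was lower in every deprived array at that hour, by 0.30 on average (limma, adjusted p = 0.956). The main tim probe set overlapped and differed by −0.05 (limma, adjusted p = 0.978), and the third, dim one differed by 0.07.

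Pdp1 at 2 h had 7.40, 6.76 and 7.76 in deprived and 7.76, 7.47 and 7.89 in sleeping flies. The groups overlapped, and the difference of −0.40 (interval −0.77 to −0.03; limma, adjusted p = 0.590) was 0.08 with the run as a block. Leaving out single arrays moved the difference between −0.63 and −0.13. Neuronal marker means at that hour ran from 6.43 to 7.56 in deprived and from 7.26 to 7.60 in sleeping flies, and their part was not tested.

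**Figure D3:**
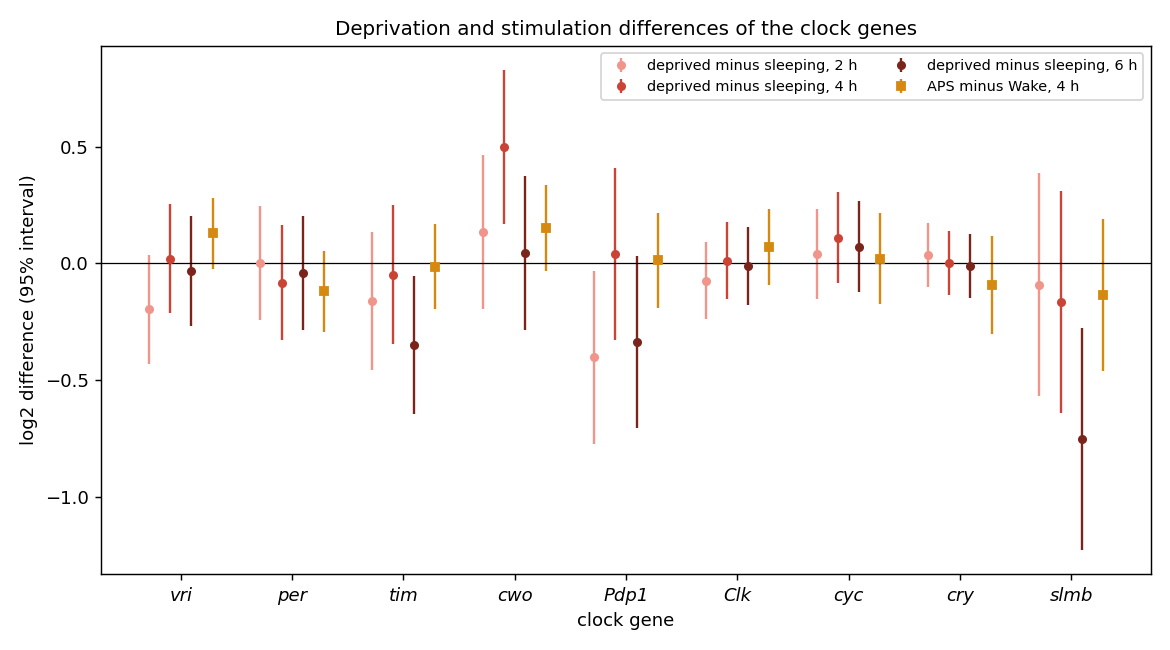
Difference in log2 expression for each clock gene between deprived and sleeping flies at 2, 4 and 6 h and between stimulated (APS) and wake flies at ZT14, with 95% intervals from limma. None passed the threshold; slmb at 6 h lies farthest from 0, at −0.75.

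The active period experiment covers the evening before, from ZT10 in the light to ZT14 in the dark, and asked whether handling acts by itself when flies are awake anyway. Relative to ZT10, tim and vri rose and cry fell in stimulated flies. In wake flies the same genes had differences of the same sign that were not called. Both comparisons use the same 3 ZT10 arrays.

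For tim, stimulated flies had 6.90, 6.99 and 6.70, wake flies 6.93, 6.85 and 6.86, and ZT10 flies 6.48, 6.32 and 6.37. All ZT14 arrays lay above all ZT10 arrays. Stimulated minus ZT10 was 0.48, 1.39-fold (interval 0.29 to 0.66; limma, adjusted p = 0.034), and wake minus ZT10 was 0.49 (0.31 to 0.67; adjusted p = 0.0545). The second tim probe set differed by 0.02 in stimulated and 0.30 in wake flies, and the third, dim one by −0.05 in stimulated and −0.19 in wake flies.

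The levels of vri were 6.78, 6.80 and 6.79 in stimulated flies, 6.62, 6.62 and 6.74 in wake flies and 6.39, 6.32 and 6.39 at ZT10. The 3 groups did not overlap, with stimulated flies highest. Stimulated minus ZT10 was 0.42, 1.34-fold (interval 0.27 to 0.57; limma, adjusted p = 0.023), and wake minus ZT10 was 0.29 (0.14 to 0.44; adjusted p = 0.162).

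The light receptor gene cry had 6.63, 6.54 and 6.35 in stimulated, 6.57, 6.71 and 6.52 in wake and 7.14, 7.15 and 6.87 in ZT10 flies. Every ZT10 array was above every ZT14 array. Stimulated flies were 0.55 below ZT10 flies on the log2 scale (interval −0.76 to −0.34; limma, adjusted p = 0.0316), and wake minus ZT10 was −0.46 (−0.66 to −0.25; adjusted p = 0.119).

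Clk and per were split between ZT14 and ZT10 as well. Clk had 2.96, 2.83 and 2.76 in stimulated, 2.74, 2.77 and 2.82 in wake and 3.09, 3.07 and 3.07 in ZT10 flies, and per had 5.61, 5.45 and 5.69 in stimulated, 5.68, 5.70 and 5.74 in wake and 5.29, 5.43 and 5.43 in ZT10 flies. Clk differed from ZT10 by −0.23 in stimulated and −0.30 in wake flies and per by 0.20 in stimulated and 0.32 in wake flies, none called. Pdp1, cyc, cwo and slmb overlapped between ZT14 and ZT10 in both comparisons.

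In all, 3 of 9 clock genes were called for stimulated flies against ZT10, where 0.251% of all probe sets were called, and 0 of 9 for wake flies, where 0.0644% were called; 5 of 9 wake differences had an unadjusted p under 0.05, where 11.4% of all probe sets did. The groups did not overlap for 5 of 9 genes in each comparison, where 17.4% of all probe sets did not in the stimulated one and 16.2% in the wake one. All arrays of stimulated and ZT10 flies come from lot 3, and within lot 3 wake minus ZT10 was 0.46 for tim, 0.31 for vri and −0.44 for cry. Means of fat body markers were 8.27 to 8.42 in stimulated and 8.15 to 8.74 in wake flies, against 7.81 to 8.20 at ZT10, and those of photoreceptor markers 5.45 to 5.74 in stimulated and 5.34 to 5.60 in wake flies, against 5.79 to 6.01 at ZT10; their part in these differences was not tested. The 3 calls were lost when single arrays were left out: tim in 6 of 9 omissions (adjusted p up to 0.211), cry in 6 of 9 (up to 0.192) and vri in 5 of 9 (up to 0.134). Without stimulated replicate 1 or 2, or ZT10 replicate 1 or 2, none of the 3 was called; without stimulated replicate 3 or wake replicate 2, 1 was called, and without ZT10 replicate 3 the tim call was lost.

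**Figure D4:**
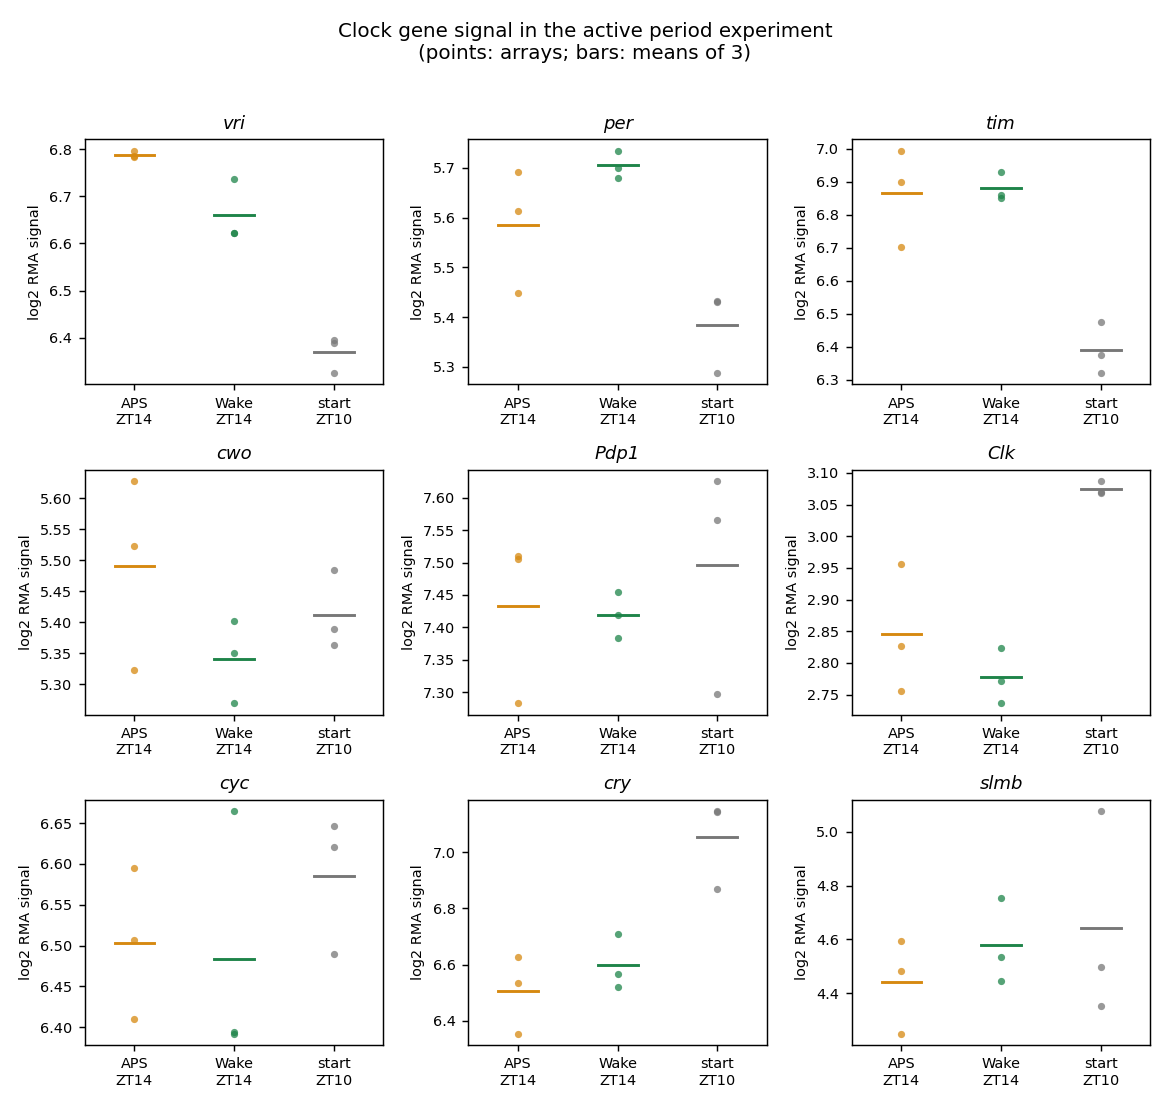
Log2 expression of the 9 clock genes on each array of the active period experiment, in stimulated (APS) and wake flies at ZT14 and in flies at ZT10 (start); points are arrays and bars are group means. The ZT14 arrays of tim, vri and per lie above the ZT10 arrays and those of cry and Clk below them.

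Handling for 4 h in the active period gave no call among the clock genes. Stimulated minus wake gave 0 of 9 calls, where 0.0859% of all probe sets were called, and 0 of 9 at an unadjusted p under 0.05, where 7.03% of all probe sets were. The vri value was 0.13 (interval −0.02 to 0.28; limma, adjusted p = 0.745), and vri was the 1 of 9 genes that did not overlap, where 12.5% of all probe sets did not. The other values ran from −0.14 in slmb to 0.15 in cwo, with −0.01 in tim. The second tim probe set was lower in every stimulated array, by 0.28 on average (limma, adjusted p = 0.649), and the second cwo probe set differed by −0.15. Set against the 4 h deprivation effect in a fit of all 30 arrays, 0 of 9 genes and 0% of probe sets were called by limma, and 1.76% of probe sets but none of the 9 genes had an unadjusted p under 0.05. The widest of these values was that of cwo, 0.35.

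Genes whose pattern over the 10 group means was most like that of tim were vri (Pearson r = 0.873), ana (0.824), ClC-a (0.813), Orct (0.764) and bnb (0.758), among 612 named probe sets whose means spanned at least 0.5. Most like Clk were Ugt35B1 (0.865), CG10513 (0.832), CG31676 (0.830), Nt5a (0.811) and cry (0.804), among 614. Within the clock, tim and per had r = 0.894, tim and cry −0.829, Clk and per −0.885, Clk and vri −0.771 and tim and Clk −0.765. The remaining pairs were weaker. For tim they were 0.466 with cwo, 0.397 with Pdp1, 0.260 with slmb and −0.409 with cyc. For Clk they were 0.458 with cyc, 0.182 with Pdp1, 0.144 with slmb and −0.453 with cwo. Each group mean was centred on its own experiment. The means share arrays, normalisation and hours, so these values describe likeness over 10 points and carry no p.

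Other genes of the clock pathway were taken from 4 lists. Of the kinases, phosphatases and turnover factors that act on PER and TIM, 11 of 16 were measured and 0 were called in any comparison. In deprived minus sleeping flies over the 3 hours their median was −0.10, with all 11 below 0, beside 0.01 over all probe sets. By hour, 10 of 11 were below 0 at 2 h and at 6 h, while 7 of 11 were above 0 at 4 h. Over the 3 hours, 8 of 9 measured co-regulators of clock transcription and translation (median −0.15) were below 0 as well. So were 8 of 9 neuronal markers (median −0.19) and all 7 photoreceptor markers (median −0.32), and the part of these markers was not tested. Of the co-regulators of clock transcription and translation, 9 of 11 were measured, and the single call was brm, the ATPase of a chromatin remodelling complex. At ZT20 in deprived flies brm had 5.81, 5.82 and 5.83, against 6.39, 6.59 and 6.22 at ZT14, a difference of −0.58 (limma, adjusted p = 0.0403). The second brm probe set differed by 0.03, and 0.881% of all probe sets were called in that comparison. The brm call was lost in 9 of 21 omissions of a single array, after renewed quantile normalisation (−0.52, limma, adjusted p = 0.0577), with the run as a block (−0.68, adjusted p = 0.0795) and without run 4 (−0.58, adjusted p = 0.176). Of 8 genes of light input and resetting, 4 were measured and 0 were called.

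Among output genes, clock neuron peptides and channels, 18 of 22 were measured and ebony was the single gene called. Ebony, an enzyme that couples beta-alanine to amines in glia, had 5.37, 5.42 and 5.25 in stimulated and 5.20, 5.36 and 5.34 in wake flies at ZT14, against 5.96, 5.96 and 5.97 at ZT10. These are differences of −0.62 and −0.66 (limma, adjusted p = 0.00234 for each), larger than those of any of the 9 core genes in the same comparisons, and both calls held when any single array was left out. In these comparisons 0.251% of all probe sets were called for stimulated and 0.0644% for wake flies. Later in the night ebony was high again in sleeping flies: 6.02, 5.79 and 6.01 at ZT20, against 5.53, 5.52 and 5.39 at ZT14, a difference of 0.46 (adjusted p = 0.0345), where 0.1% of all probe sets were called. That call was lost in 13 of 21 omissions of a single array, after median centring (adjusted p = 0.077), with only the groups compared (0.225), with the lot (0.0584) or the run (0.719) as a block and without run 4 (0.16). Without the array of conflicting labels the difference was 0.42 (adjusted p = 0.309). In deprived flies the ZT20 values were 5.96, 5.66 and 5.68, a difference of 0.28 from ZT14 that was not called (adjusted p = 0.0977), and deprived minus sleeping at 6 h was −0.17 (adjusted p = 0.289).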

How the data were processed

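RNA of whole-brain pools was measured on 30 arrays, 21 in the sleep deprivation and 9 in the active period experiment. The deposited values are log2 expression levels that the authors made with RMA (background correction, quantile normalisation and 1 summary per probe set), per the labels and the design text of the series. As tools, the submitters' processing notes list affy and RMA without a version. Quantile normalisation hides a shift shared by most transcripts. Whether both experiments were normalised together is not stated, so groups were compared within an experiment, apart from the fit of all 30 arrays.

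The 44 controls among 14010 probe sets were not tested; 12443 of the other 13966 have 1 symbol, 327 several and 1196 none, and 12394 were matched to RefSeq (Release 6 plus ISO1 MT) for names only. Differences were fitted with limma 3.58.1 (lmFit, eBayes) in R 4.3.3, taking a mean for each group inside an experiment; Benjamini-Hochberg adjustment ran over the 13966 probe sets, and an adjusted p under 0.05 was a call. The test was checked on simulated data with independent noise and no lot or run differences, so that check does not cover such batches. Where nothing says that pools were raised separately, p-values measure the spread between these pools. Chip lots and hybridisation runs, read from the scanner settings, were used as batches; no run is recorded for the active period arrays.

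All 9 genes were named whatever their p, with the brightest probe set for each gene; of the other lists, the members past the threshold, at most 4 per list and comparison. Likeness took the 5 highest Pearson correlations among probe sets whose centred group means span at least 0.5. The members, lists and tests were chosen with earlier results of these data known. Alternatives were renewed quantile normalisation, median centring, a filter on dim probe sets, fits restricted to the compared groups or widened to all 30 arrays, weighted arrays, a trended robust variance, a replicate, lot or run block, any probe set standing for a gene, an adjusted p under 0.10 and leaving out arrays one by one. The 3′ to 5′ covariate and the omission of run 4 were chosen after seeing the data. The study's own Fs test was not run.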

Additional observations from a re-analysis of the deposited data

How the results depend on the processing

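Over all alternatives, 52 of 76 differences of single genes kept their sign, and of 2170 recomputed values 2005 kept their sign and side of the threshold, 64 changed sign, 83 lost a call and 18 gained one. The fall of vri at ZT20 in deprived flies was called in each alternative run; that in sleeping flies in each except the run block. The causes of the changes below were not tested.

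Counts of called clock genes are given with the number called among all 13966 probe sets. Array weights called 2 clock genes (tim, cwo) for the mean deprivation effect, of 1157 probe sets, 1 at 2 h (vri), of 429, 1 at 4 h (cwo), of 1949, and 1 at 6 h (slmb), of 447. Over the night they called 5 in deprived flies, of 1110, and 7 in sleeping flies, of 5708. The run block called 1 at 6 h (slmb), of 704, and 0 over the night in sleeping flies, of 6. The fit of all 30 arrays called 3 over the night in deprived flies, of 60, 1 for stimulated flies against ZT10, of 19, and 1 for wake flies, of 8; the fit of only the groups compared called 1 for stimulated flies, of 31. For wake flies against ZT10, 1 was called (tim) after renewed quantile normalisation, of 9, with a trended robust variance, of 14, and at an adjusted p under 0.10, of 19, and 2 with the 3′ to 5′ covariate, of 57. Leaving out single arrays gave 1 to 2 calls over the night in deprived flies (2 without deprived 2 h replicate 1), 0 to 1 for wake flies against ZT10 (1 without stimulated replicate 3) and 0 to 3 for stimulated flies against ZT10.

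Changes of sign included differences not near 0, such as cwo in sleeping flies at ZT20 and Pdp1 at 2 h. With the run block, deprived minus sleeping was 0.0076 for Clk and 0.041 for per in the mean, 0.0831 for Pdp1 at 2 h (−0.40 without the block), and at 6 h 0.0266 for cry, −0.42 for cwo, −0.16 for cyc, 0.31 for per and 0.0109 for vri; sleeping ZT20 minus ZT14 was 0.47 for Pdp1, 0.0474 for cwo (−0.44 without it) and 0.12 for cyc. Without run 4, the mean was 0.0136 for Clk and 0.0299 for per, and Clk at 6 h was 0.0636. With the 3′ to 5′ covariate, per was 0.0308 in the mean and 0.0998 at 6 h, cyc −0.011 at 6 h, vri −0.0332 at 4 h and −0.0106 for the difference of trends, and stimulated minus wake was −0.0525 for cyc, 0.0287 for slmb and 0.01 for tim. Renewed quantile normalisation gave 0.0684 for cry and 0.008 for vri at 6 h, 0.0513 for cyc in deprived flies at ZT20, −0.0139 for Pdp1 in stimulated minus wake and 0.0079 in wake minus ZT10. The lot block gave −0.0168 for vri at 4 h, and −0.026 for cyc and 0.0109 for tim in stimulated minus wake; array weights gave 0.0296 for Clk at 6 h.

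Single omissions spanned 0 in the mean for Clk (−0.0515 to 0.0) and cry (−0.0068 to 0.0232) and at 6 h for Clk (−0.0911 to 0.0636), cry (−0.0556 to 0.0291), cwo (−0.038 to 0.1802), cyc (−0.0124 to 0.1185), per (−0.0838 to 0.0393) and vri (−0.103 to 0.0199). They also did for vri at 4 h (−0.0361 to 0.0976) and its trend difference (−0.0046 to 0.0138), cyc in deprived flies at ZT20 (−0.122 to 0.0089), stimulated minus wake in Pdp1 (−0.0251 to 0.0884), cyc (−0.026 to 0.1103) and tim (−0.0787 to 0.0673), wake minus ZT10 in slmb (−0.2081 to 0.1529), and stimulated minus ZT10 in Pdp1 (−0.1631 to 0.0112) and slmb (−0.3454 to 0.0156).

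With the replicate block, the counts of called clock genes for deprivation, the night courses over all hours and the active period did not change. At ZT20, tim in deprived flies lost its call (−0.65, adjusted p = 0.0561), as did ebony in sleeping flies (0.46, adjusted p = 0.0782) and brm (−0.58, adjusted p = 0.0522). Labels share only replicate numbers: deviations of same-numbered arrays correlated with a median of −0.025 (63 pairs) in the deprivation and 0.011 (9 pairs) in the active period experiment. Of the genes most like tim, 2 of 5 stayed by Spearman correlation and 2 over the 7 deprivation means, and of those most like Clk, 3 by Spearman correlation. Clk and the dimmest tim probe set lie near background, and 3 arrays per group limit every value.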
